A study of Homo sapiens with 6 samples.

Results

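The genes of non-muscle myosin II and of the kinases ROCK1 and ROCK2 were followed in CAL27 cells after lactate. CAL27 is a human cell line from a squamous carcinoma of the tongue. The set holds 10 genes of the 31368 in the deposited table. They are the heavy chain genes MYH9, MYH10 and MYH14, the essential light chain gene MYL6, the regulatory light chain genes MYL9, MYL12A and MYL12B, and the kinase genes MYLK, ROCK1 and ROCK2. Members were matched by gene symbol. The set was chosen from general knowledge with results of this same comparison known, in which MYH10 ranked 8 by log2 fold change among 9885 protein-coding genes tested. Fold changes of the members between the groups are therefore given as descriptions, with no p-value, and support nothing by themselves. Poly-A RNA was sequenced from 3 libraries of cells given 10 mM lactate for 24 h and from 3 libraries of untreated cells, and no gene was altered in either group. The study set these libraries beside its profiling of lactylation, a protein modification derived from lactate, to read out changes in expression. The sources used here name neither the salt form of the lactate, a vehicle nor the medium's pH. Only 1 cell line was used, and no label ties a replicate to a culture of its own, so the spread behind each p-value may be technical.

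Non-muscle myosin II is the motor that pulls actin filaments together in stress fibres, the cell cortex and the cleavage furrow. Each molecule has a pair of heavy chains, which carry the motor and a coiled-coil tail, with essential and regulatory light chains bound at the neck. The heavy chains of MYH9, MYH10 and MYH14 give the isoforms IIA, IIB and IIC, which differ in how long they stay bound to actin. Phosphorylation of the regulatory light chain by myosin light chain kinase or by ROCK lets the molecules assemble and contract, and ROCK also inhibits the phosphatase that removes the mark. ROCK itself is switched on by the GTPase RhoA. In keratinocytes and squamous carcinoma cells this machinery sets cell shape, junction tension and movement.

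The FPKM values, fragment counts divided by gene length and library size, rested on 30677800 to 39509993 recovered reads in lactate libraries and 25895115 to 34316904 in untreated libraries. Of the 9 keratinocyte and general epithelial markers, 9 reached a mean of 1 FPKM. Their summed levels were 1059 to 1081 FPKM in lactate libraries and 1051 to 1068 FPKM in untreated libraries. EPCAM, which is not specific to keratinocytes, had 120 FPKM in lactate and 114 FPKM in untreated cells. The basal keratin gene KRT14 was low, at 2.83 FPKM in lactate and 2.02 FPKM in untreated cells. SFN supplied the largest part of the sum (598 FPKM in lactate, 602 FPKM in untreated cells), and single markers went either way. KRT5 and KRT6A were lower in lactate (118 and 9.57 FPKM, against 155 and 11.6 FPKM). KRT17, TP63 and CDH1 were higher (136, 32.0 and 45.5 FPKM, against 108, 26.3 and 37.1 FPKM). Of 7 measured muscle markers, 1 reached a mean of 1 FPKM (SMTN), and MYH11, the smooth muscle heavy chain gene, stood at 0.0447 FPKM in lactate and 0.0502 FPKM in untreated cells. Of 6 measured fibroblast markers 0 did, with summed levels of 1.61 to 1.80 FPKM in lactate libraries and 1.07 to 1.21 FPKM in untreated libraries. The part of these differences in the results below was not tested. Leukocyte markers (0 of 4 at a mean of 1 FPKM) summed to 0.392 to 0.618 FPKM in lactate libraries and 0.749 to 0.907 FPKM in untreated libraries, and endothelial markers (1 of 3, CDH5) to 1.03 to 1.13 FPKM in lactate libraries and 1.13 to 1.41 FPKM in untreated libraries. In such bulk RNA, fewer cells with a transcript and less of it per cell cannot be told apart.

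After lactate the mRNA of the minor heavy chains MYH10 and MYH14 and of the minor regulatory light chain MYL9 stood 1.51 to 1.76 times as high as in untreated cells, while the abundant MYH9 had a ratio of 0.980. MYL12A and MYL12B, the abundant regulatory light chains, and ROCK1 and ROCK2 were higher by smaller margins, and MYL6 was lower. MYLK was under 1 FPKM in every library. Of the 10 members, 9 had at least 1 FPKM in 3 or more libraries and entered the test, and each of the 9 did so in both groups. The call rule was a limma p under 0.05 after Benjamini-Hochberg adjustment over all genes. By it 8 of the 9 were called, where 58.6% of all 11792 tested genes were. The calls were 7 higher in lactate, against 27.7% of all tested genes, and 1 lower, against 30.9%. The groups did not overlap in 9 of the 9, which was so in 65.5% of all tested genes. The median log2 fold change of the 9 was 0.23, and that of all tested genes was -0.016.

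**Figure D1:**
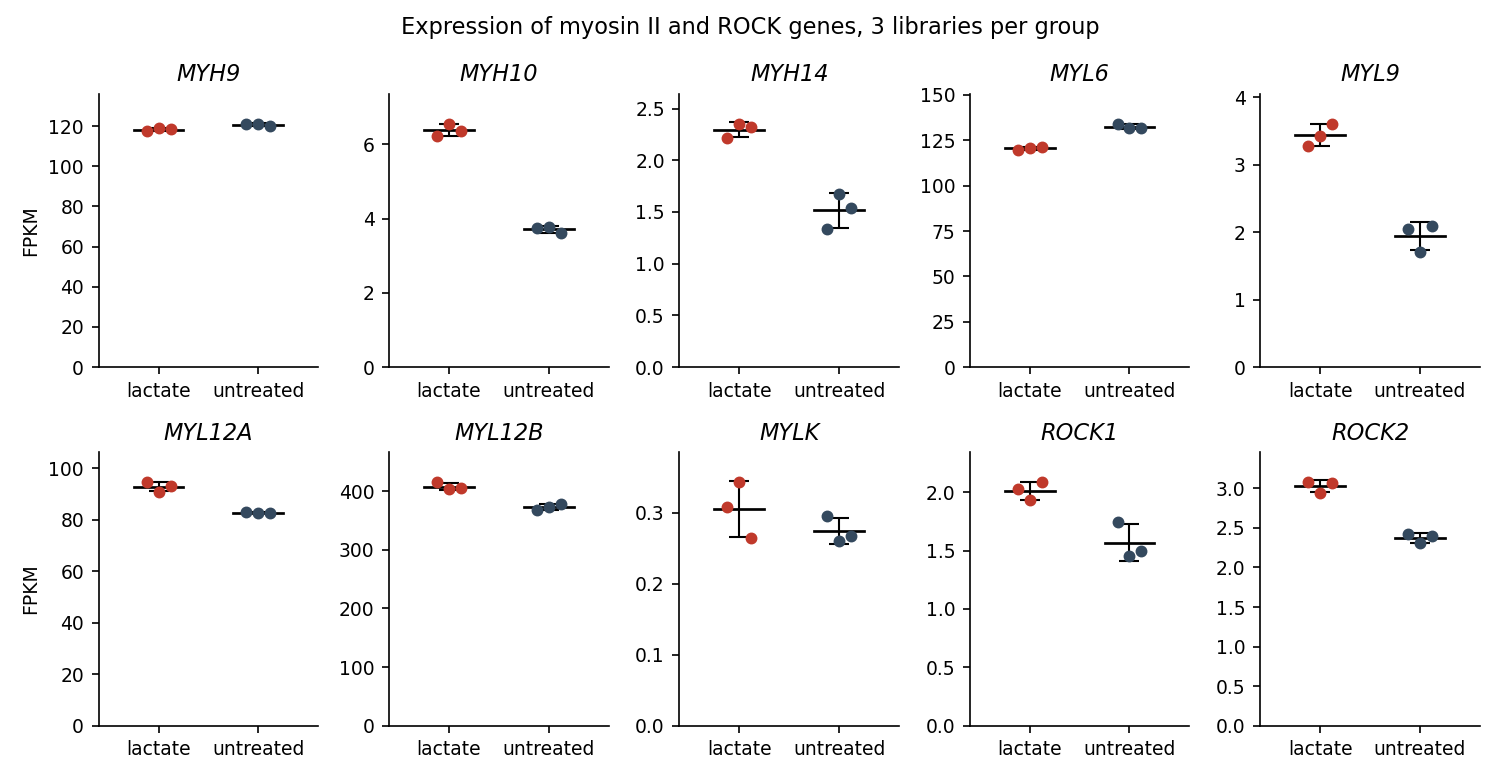
FPKM of the 10 genes in each library, lactate (red) left of untreated (dark), on axes that start at 0. Points are libraries, horizontal lines are means and bars are ± 1 SD over 3 libraries. MYH10, MYH14 and MYL9 show the widest gaps between groups, and MYLK is the gene whose groups overlap.

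MYH9, the heavy chain of myosin IIA, lies on chromosome 22 (36281277 to 36388067 in GRCh38, minus strand). It had 117.4, 119.1 and 118.5 FPKM in lactate libraries and 121.0, 121.1 and 119.99 FPKM in untreated libraries. The groups lay next to each other without overlap, and the log2 fold change was -0.029 (SE 0.016). With the values as deposited this gene did not pass the threshold. Both its call and its sign depended on the scaling between libraries: it passed as higher after quantile normalization (log2 fold change 0.15) and as lower after median centring (-0.050).

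MYH10, the heavy chain of myosin IIB, lies on chromosome 17 (8474205 to 8630761, minus strand). It had 6.24, 6.55 and 6.35 FPKM in lactate libraries, against 3.76, 3.78 and 3.61 FPKM in untreated libraries. Every lactate library was above every untreated one. The means were 6.38 ± 0.158 FPKM in lactate and 3.72 ± 0.0918 FPKM in untreated cells (SD, n = 3 each), a ratio of 1.72, and the log2 fold change was 0.65 (SE 0.033). The reads behind these values were 1739 to 2301 per lactate library and 857 to 1083 per untreated library. The spread between libraries was 2.48% of the mean in lactate and 2.47% in untreated cells, and counting error alone gives 2.25% in lactate and 3.23% in untreated cells.

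MYH14, the heavy chain of myosin IIC, lies on chromosome 19 (50188186 to 50310544, plus strand). It had 2.22, 2.35 and 2.32 FPKM in lactate libraries and 1.34, 1.68 and 1.53 FPKM in untreated libraries. The lactate libraries were again all higher, with a spread of 3.12% of the mean, and the untreated ones had a spread of 11.3%. The ratio of means was 1.51 and the log2 fold change 0.39 (SE 0.057). Of its exon bases, 457 overlap an antisense gene on the opposite strand. No source used here says whether reads were counted by strand.

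Sequence before the RefSeq start of the heavy chain genes is shown because these genes encode the alternative heavy chains of 1 motor and differed in their fold changes. It comes from RefSeq (GRCh38.p14), runs 5′ to 3′ on the gene's strand, and ends where the first GENCODE 29 exon of the gene begins. For MYH14 it is the whole window of 250 bases, which lies inside the gene as GENCODE 29 draws it. Capitals mark the GC box and TEAD matches described next.
MYH9 chr22:36388068-36388217 (minus strand): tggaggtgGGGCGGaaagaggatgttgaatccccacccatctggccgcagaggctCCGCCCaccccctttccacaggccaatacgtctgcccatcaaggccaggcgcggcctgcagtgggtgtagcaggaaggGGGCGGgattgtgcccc
MYH10 chr17:8630762-8630975 (minus strand): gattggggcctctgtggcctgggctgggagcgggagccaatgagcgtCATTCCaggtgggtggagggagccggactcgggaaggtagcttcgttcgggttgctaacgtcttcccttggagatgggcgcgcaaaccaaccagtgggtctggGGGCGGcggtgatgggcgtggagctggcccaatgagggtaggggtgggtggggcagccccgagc
MYH14 chr19:50203372-50203621 (plus strand): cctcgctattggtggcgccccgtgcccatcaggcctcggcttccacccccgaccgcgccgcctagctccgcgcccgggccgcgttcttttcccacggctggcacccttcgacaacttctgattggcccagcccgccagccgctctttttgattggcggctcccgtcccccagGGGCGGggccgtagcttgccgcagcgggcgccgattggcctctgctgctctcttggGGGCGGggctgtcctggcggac
The whole windows of 250 bases were searched on both strands for the GC box (GGGCGG), the TEAD word GGAATG, the AP-1 word TGANTCA, the E-box CACGTG and the CArG box bound by SRF. Matches were allowed to overlap. MYH10 held 1 GC box and 1 TEAD word, both in the printed bases. MYH9 held 6 GC boxes, 3 of them in the printed bases, and 1 TEAD word outside them, and MYH14 held 2 GC boxes. Among 35116 RefSeq windows of the same length, 42.6% held a GC box and 11.9% a TEAD word. AP-1 words (6.6% of windows), E-boxes (6.3%) and CArG boxes (1.2%) were not among the letters of these 3 windows. Of the 10 members, 9 had a RefSeq window. The entry for MYLK, a window inside the gene, held 1 CArG box, 1 of the entries for ROCK2 held 1 CArG box and 1 TEAD word, and 1 of those for MYL12A held 1 E-box.

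Among regulatory light chains, the subunits whose phosphorylation turns the motor on, MYL12B was the most abundant. On chromosome 18 (3261479 to 3278431, plus strand), it had 415, 403 and 406 FPKM in lactate libraries and 368, 374 and 378 FPKM in untreated libraries. The groups did not overlap, the ratio of means was 1.09 and the log2 fold change 0.13 (SE 0.018). Its neighbour MYL12A (chromosome 18, 3247481 to 3256236, plus strand) had 94.5, 90.9 and 93.0 FPKM in lactate libraries and 83.1, 82.5 and 82.7 FPKM in untreated libraries. This was a ratio of 1.12 and a log2 fold change of 0.16 (SE 0.020). The neighbours encode near-identical proteins, so reads could be exchanged between them. Of the distinct stretches of 50 bases in their GENCODE 29 transcripts, 6.1% for MYL12A and 5.86% for MYL12B occur in another gene, and of stretches of 100 bases 0% for either.

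MYL9 encodes the regulatory light chain that predominates in smooth muscle and lies on chromosome 20 (36541484 to 36551447, plus strand). It had 3.28, 3.42 and 3.60 FPKM in lactate libraries and 2.04, 1.71 and 2.10 FPKM in untreated libraries. The lowest lactate library was above the highest untreated one. The means were 3.43 ± 0.163 FPKM in lactate and 1.95 ± 0.207 FPKM in untreated cells (SD, n = 3 each), a ratio of 1.76, the widest of the 10 genes. Adding 1 FPKM before the log shrinks the fold change of a low gene, and on that scale its log2 value was 0.59 (SE 0.059), below that of MYH10. Only 285 to 407 reads per lactate library and 121 to 196 per untreated library lay behind it. Counting error alone gives a spread of 5.50% in lactate and 8.03% in untreated cells, and the spread observed was 4.75% in lactate and 10.6% in untreated cells. Among muscle markers SMTN stood at 3.098 FPKM in lactate and 3.102 FPKM in untreated cells, ACTA2 at 0.468 FPKM in lactate and 0.334 FPKM in untreated cells, and CNN1 at 0 FPKM in lactate and 0.0129 FPKM in untreated cells.

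MYL6, the essential light chain that stabilises the neck of the heavy chain, was the member called lower. It lies on chromosome 12 (56158161 to 56163496, plus strand) and had 119.8, 121.0 and 121.4 FPKM in lactate libraries and 134.0, 131.9 and 131.6 FPKM in untreated libraries. The groups did not overlap, and the log2 fold change was -0.13 (SE 0.017). Its exons share 514 nt with SMARCC2 on the opposite strand and 89 nt with MYL6B on the same strand. After quantile normalization the gene passed as higher (log2 fold change 0.062). With read totals its log2 fold change was -0.063, and under the GC and length correction -0.050.

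The kinases were present at low levels. ROCK2 (chromosome 2, 11179761 to 11348330, minus strand) had 3.08, 2.95 and 3.07 FPKM in lactate libraries and 2.42, 2.31 and 2.40 FPKM in untreated libraries, a ratio of 1.28 and a log2 fold change of 0.26 (SE 0.036). ROCK1 (chromosome 18, 20946906 to 21111851, minus strand) had 2.03, 1.93 and 2.08 FPKM in lactate libraries and 1.75, 1.45 and 1.49 FPKM in untreated libraries. Its ratio was 1.29 and its log2 fold change 0.23 (SE 0.055). For either gene the lactate libraries lay above the untreated ones. The transcripts are long and poor in G and C (11075 nt and 40.5% for ROCK1, 10198 nt and 39.9% for ROCK2). After removal of a library-wise fit on GC content and length, the log2 fold changes were 0.045 for ROCK1 and 0.065 for ROCK2, and neither passed. Of the 100-base stretches of ROCK1, 5.92% also occur in the pseudogene ROCK1P1.

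MYLK, the gene of the calcium- and calmodulin-dependent light chain kinase, had 0.309, 0.343 and 0.265 FPKM in lactate libraries and 0.295, 0.260 and 0.267 FPKM in untreated libraries. The groups overlapped, and the gene was under the minimum for the test. It lies on chromosome 3 (123610049 to 123884331, minus strand), and its values rested on 212 to 250 reads per lactate library and 145 to 197 per untreated library. Its FPKM was computed over 22167 nt, the sum of all annotated exons, while its principal transcript has 10027 nt. Recomputed over that transcript the level was 0.675 ± 0.0867 on the FPKM scale in lactate and 0.606 ± 0.0411 in untreated cells (SD, n = 3 each).

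The order of FPKM levels was the same for the upper members in both groups: MYL12B, then MYL6 and MYH9, then MYL12A, then MYH10. MYL6 and MYH9 were close together in lactate (120.7 ± 0.837 and 118.3 ± 0.856 FPKM) and farther apart in untreated cells (132.5 ± 1.35 and 120.7 ± 0.619 FPKM, SD, n = 3 each). Below them came MYL9 and ROCK2, at 3.43 ± 0.163 and 3.03 ± 0.0740 FPKM in lactate and 1.95 ± 0.207 and 2.38 ± 0.0608 FPKM in untreated cells. MYL9 was thus above ROCK2 in lactate and below it in untreated cells, an order that did not hold over principal transcripts (3.42 ± 0.162 and 3.73 ± 0.0910 FPKM in lactate, 1.94 ± 0.206 and 2.92 ± 0.0748 FPKM in untreated cells). MYH14 and ROCK1 followed, at 2.30 ± 0.0716 and 2.01 ± 0.0776 FPKM in lactate. In untreated cells they did not differ beyond their spread, at 1.52 ± 0.172 and 1.56 ± 0.159 FPKM. The order depends on the length that FPKM divides by. MYL6 was scaled to 4424 nt, while its principal transcript has 901 nt. Recomputed over principal transcripts, MYL6 had 593 ± 4.11 FPKM in lactate and 650.5 ± 6.62 FPKM in untreated cells, above MYL12B at 568 ± 8.76 FPKM in lactate and 519.5 ± 6.45 FPKM in untreated cells (SD, n = 3 each).

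Within the heavy chain mRNA, IIA made up the bulk and the minor isoforms took a larger share after lactate. MYH10 supplied 4.95%, 5.12% and 4.99% of the summed heavy chain FPKM in lactate libraries and 2.98%, 2.99% and 2.89% in untreated libraries. MYH14 supplied 1.76%, 1.84% and 1.83% in lactate libraries and 1.06%, 1.33% and 1.23% in untreated libraries. MYH9 supplied 93.2% ± 0.119 in lactate and 95.8% ± 0.142 in untreated cells (SD, n = 3 each). As deposited, the sum of all 3 heavy chains was 127 ± 1.08 FPKM in lactate and 126 ± 0.731 FPKM in untreated cells. On that scaling it differed by about the spread between libraries. This near-equal sum depends on the scaling, since MYH9 had a log2 fold change of 0.041 with read totals and 0.15 after quantile normalization. MYH9 mRNA was 18.6 ± 0.331 times as abundant as MYH10 mRNA in lactate and 32.5 ± 0.645 times in untreated cells.

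**Figure D2:**
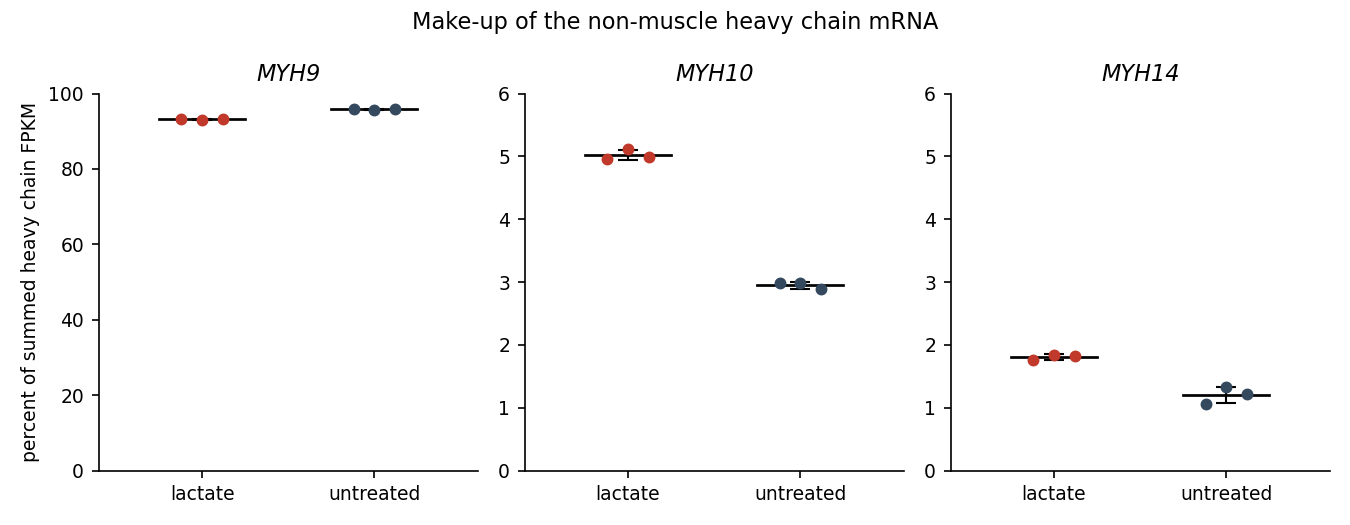
Percent of the summed FPKM of MYH9, MYH10 and MYH14 that each gene supplied, lactate (red) left of untreated (dark); the MYH9 axis runs to 100% and the others to 6%. Points are libraries, lines are means and bars are ± 1 SD over 3 libraries. MYH10 lies near 5% in lactate and 3% in untreated libraries.

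The regulatory light chains were higher in sum, with little change in their make-up. Their summed FPKM was 504 ± 7.87 in lactate and 458 ± 4.42 in untreated cells. MYL12B supplied 80.9% ± 0.133 of it in lactate and 81.5% ± 0.240 in untreated cells, and MYL9 0.681% ± 0.0395 in lactate and 0.426% ± 0.0450 in untreated cells. Regulatory light chain FPKM over heavy chain FPKM was 3.97 ± 0.0958 in lactate and 3.64 ± 0.0511 in untreated cells. MYL6 over heavy chain was 0.951 ± 0.00451 in lactate and 1.05 ± 0.0106 in untreated cells (SD, n = 3 each). These levels depend on the length that FPKM divides by and give no ratio of subunits. Over principal transcripts MYL6 over heavy chain was 3.94 ± 0.0189 in lactate and 4.36 ± 0.0456 in untreated cells. On that scale MYL12B supplied 71.0% of the regulatory light chain sum in lactate and 71.6% in untreated cells. The balance of the kinases was alike in both groups: ROCK2 over ROCK1 was 1.51 ± 0.0276 in lactate and 1.53 ± 0.123 in untreated cells.

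Small fold changes of abundant genes moved with the scaling between libraries. The reads recovered from the table came to 98.0% to 99.1% of the denominators in lactate libraries and 102.9% to 104.1% in untreated libraries. With libraries scaled to read totals MYH9 had a log2 fold change of 0.041, after quantile normalization 0.15, and with the GC and length trend removed 0.011. For MYL12A quantile normalization gave 0.31. For MYL12B it gave 0.34, scaling to read totals 0.20 and removal of the GC and length trend 0.26. For MYH10 the values ran from 0.61 to 0.78 and for MYL9 from 0.55 to 0.81 over all settings other than libraries left out. For MYH14 they ran from 0.36 to 0.61, and for each of these 3 genes the highest value came from voom on recovered reads.

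**Figure D3:**
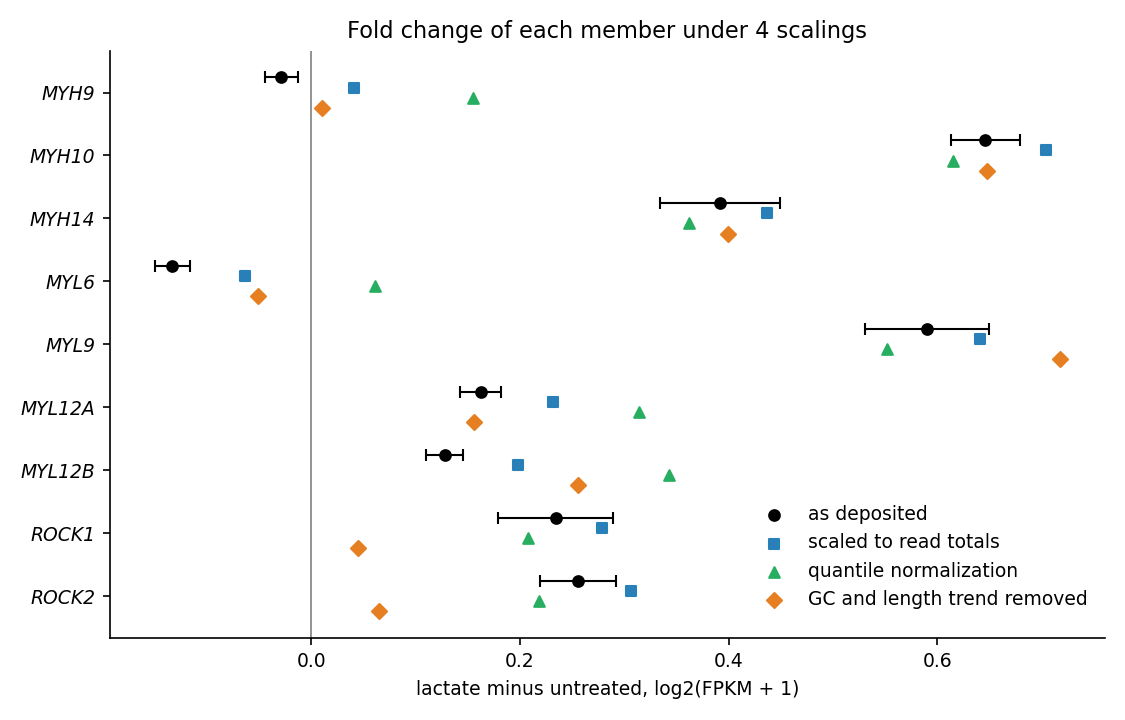
Log2 fold change, lactate minus untreated on the log2(FPKM + 1) scale, of the 9 tested members as deposited (black, bar ± 1 moderated SE), scaled to read totals (blue), after quantile normalization (green) and with the GC and length trend removed (orange). MYH10, MYH14 and MYL9 lie above 0.3 under each of these, MYH9 lies on either side of 0, and ROCK1 and ROCK2 fall under 0.1 with the trend removed.

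The genes around the motor were read from 8 lists written from general knowledge, which hold none of the 10 members. Of 150 genes written, 105 were tested, and limma called 52 higher and 21 lower at an adjusted p under 0.05 over all genes, with a median log2 fold change of 0.085. With libraries scaled to read totals the split was 64 higher and 12 lower, and after quantile normalization 56 higher and 12 lower. Among all tested genes the split was 3265 higher (27.7%) and 3649 lower (30.9%) as deposited, and 4178 higher and 2577 lower with read totals. The counts in each list below are to be read beside those shares.

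Upstream of ROCK, 6 of 20 tested GTPase and regulator genes rose, 4 fell and 10 did not pass (median -0.012). Over all tested genes 27.7% rose and 30.9% fell, so the number that rose in this list was near the general share. With read totals 8 rose and 1 fell. RHOB, an endosomal relative of RhoA that is induced by growth factors and stress, rose to 49.9 ± 0.733 FPKM in lactate, against 38.3 ± 1.55 FPKM in untreated cells (log2 fold change 0.38, adjusted p = 6.86e-05 by limma). ARHGDIB, the gene of a GDP dissociation inhibitor, fell to 45.3 ± 1.62 FPKM in lactate, against 61.5 ± 1.93 FPKM (log2 fold change -0.43). The RhoA exchange factor gene ARHGEF12 rose to 1.94 ± 0.0363 FPKM, against 1.37 ± 0.0194 FPKM, and ARHGEF28 to 4.10 ± 0.125 FPKM, against 3.31 ± 0.0871 FPKM. Under the GC and length correction the call of ARHGEF28 was lost (log2 fold change 0.042), and that of ARHGEF12 held at 0.11, against 0.31 as deposited. RHOA, named after its values were seen because it is the activator of ROCK, had 62.9 ± 1.17 FPKM in lactate and 68.3 ± 1.14 FPKM in untreated cells and passed as lower (log2 fold change -0.12, adjusted p = 0.00317 by limma).

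The next list covers the phosphatase that reverses light chain phosphorylation, related catalytic subunits and inhibitors. Of its 8 tested genes, 4 were higher and 2 lower (median 0.042). Since it mixes subunits with inhibitors, these counts give no direction for the phosphatase. PPP1R12A, which encodes the targeting subunit that ROCK phosphorylates, rose to 4.49 ± 0.136 FPKM in lactate, against 3.24 ± 0.263 FPKM in untreated cells (log2 fold change 0.37, and 0.17 under the GC and length correction). The catalytic subunit gene PPP1CB passed as higher at 28.6 ± 0.358 FPKM in lactate and 26.2 ± 0.792 FPKM in untreated cells, but its sign turned with the GC and length trend removed (log2 fold change -0.031). PPP1CA, a related catalytic subunit gene, fell to 71.2 ± 1.58 FPKM, against 85.4 ± 0.954 FPKM (log2 fold change -0.26, and -0.12 after quantile normalization). PPP1R14B, which encodes a phosphatase inhibitor, fell to 272 ± 16.3 FPKM, against 348 ± 9.72 FPKM, and did not pass after quantile normalization, which left 1 gene of this list lower. Under the GC and length correction 2 genes were higher. Without untreated replicate 3, the number of higher genes in this list was 2, PPP1CC and PPP1R14C no longer passing.

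Of 13 tested genes for other light chain kinases and calmodulins, 9 rose and 1 fell (median 0.13). PAK2, a kinase activated by Rac and Cdc42, rose to 28.1 ± 0.310 FPKM in lactate, against 23.5 ± 0.871 FPKM in untreated cells (log2 fold change 0.25, and 0.092 under the GC and length correction). STK17B, the gene of a kinase related to death-associated protein kinase, passed at 3.39 ± 0.133 and 2.76 ± 0.0503 FPKM, and CDC42BPA, which encodes a ROCK-related kinase, at 2.0 ± 0.052 and 1.61 ± 0.0584 FPKM, lactate and untreated. Both calls were lost under the GC and length correction (log2 fold changes 0.054 and 0.066). Without untreated replicate 1, 2 genes of this list passed as lower, DAPK3 being added.

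ROCK also acts through LIM kinases, which inactivate cofilin, and on proteins that tie actin to the membrane. In that list 4 of 15 tested genes rose and 4 fell (median -0.0099). Both counts were near the shares over all tested genes, 27.7% higher and 30.9% lower. The split was 5 higher and 1 lower after quantile normalization, 6 higher and 3 lower with read totals, and 4 higher and 6 lower after median centring. LIMK2 fell to 13.9 ± 0.293 FPKM in lactate, against 18.1 ± 0.380 FPKM in untreated cells (log2 fold change -0.36, adjusted p = 5.55e-05 by limma). CFL1, the cofilin gene, fell to 267 ± 5.51 FPKM, against 318 ± 6.78 FPKM, and EZR, the ezrin gene, to 201 ± 3.82 FPKM, against 226 ± 3.66 FPKM. Neither CFL1 nor EZR passed after quantile normalization (log2 fold changes -0.046 and -0.0037). ADD3, which encodes a subunit of the spectrin-actin cap adducin, rose to 4.96 ± 0.0651 FPKM, against 3.17 ± 0.195 FPKM (log2 fold change 0.52).

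Of 24 tested genes for actin and its filament partners, 12 rose and 6 fell (median 0.079), and after quantile normalization 14 rose and 3 fell. ANLN, the gene of anillin, which links myosin II to septins in the cleavage furrow, rose to 62.7 ± 1.31 FPKM in lactate, against 50.3 ± 0.794 FPKM in untreated cells (log2 fold change 0.31, and 0.16 under the GC and length correction). SEPTIN2, a septin that binds non-muscle myosin II, rose to 55.0 ± 1.1 FPKM, against 44.5 ± 1.13 FPKM, and the calponin gene CNN3 to 48.7 ± 0.795 FPKM, against 40.7 ± 0.382 FPKM. TAGLN2, the gene of the actin-binding protein transgelin 2, fell to 243 ± 2.27 FPKM, against 296 ± 2.81 FPKM (log2 fold change -0.29, adjusted p = 1.70e-05 by limma), with -0.11 after quantile normalization.

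The transcription factor SRF and its coactivators respond to the actin pool and drive many actomyosin genes. Of 12 tested genes in that list, 9 rose and 1 fell (median 0.13). CCN2 and CCN1, matricellular protein genes that respond to SRF and to YAP, rose to 58.5 ± 0.497 and 267 ± 2.05 FPKM in lactate, against 43.6 ± 0.423 and 218 ± 1.04 FPKM in untreated cells. VCL, the vinculin gene, rose to 24.98 ± 0.343 FPKM, against 20.7 ± 0.287 FPKM (log2 fold change 0.26, and 0.17 under the GC and length correction). FHL1, also among the 9, had 1.34 ± 0.0573 FPKM in lactate and 0.911 ± 0.0750 FPKM in untreated cells. It was under 1 FPKM in every untreated library and met the minimum for the test through the lactate libraries alone, so its call adds no support. The gene that passed as lower was SRF itself, named after its values were seen, at 14.9 ± 0.429 FPKM in lactate and 15.9 ± 0.240 FPKM in untreated cells. That call was lost without lactate replicate 3 or any of the 3 untreated replicates. It was also lost after quantile normalization, with read totals, with no filter on low values and under the GC and length correction.

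**Figure D4:**
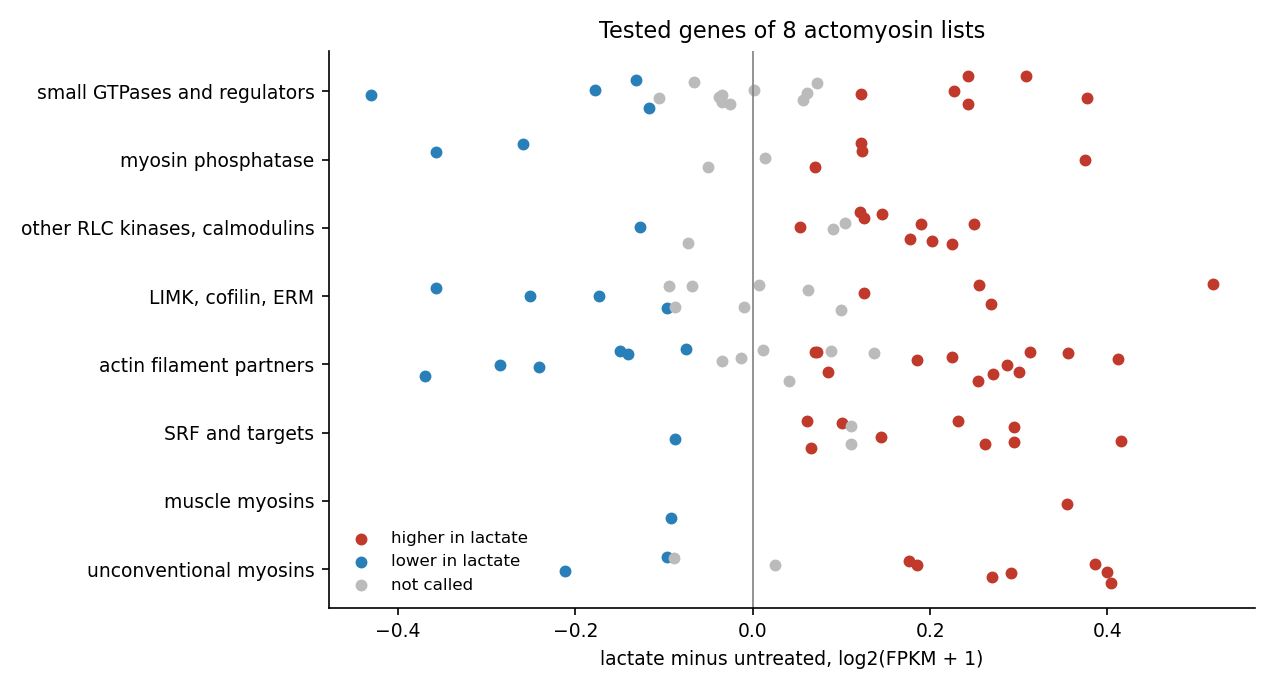
Log2 fold change, lactate minus untreated on the log2(FPKM + 1) scale, of the 105 tested genes in 8 lists (rows); points are genes, red where limma called them higher in lactate, blue where lower and grey where not called. Vertical jitter has no meaning. As deposited, the kinase, SRF and unconventional myosin rows lie mostly right of 0, and the GTPase and LIMK rows spread on either side; with read totals 8 genes of the GTPase row were called higher and 1 lower.

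Other myosins were compared to see how far the heavy chain differences extended. Of 20 muscle heavy and light chain genes written, 2 reached the minimum for the test. MYH15, a sarcomeric-type heavy chain gene, rose to 2.39 ± 0.138 FPKM in lactate, against 1.65 ± 0.112 FPKM in untreated cells (log2 fold change 0.35). MYL6B, the essential light chain gene next to MYL6, passed as lower at 19.6 ± 0.570 FPKM in lactate and 21.0 ± 0.604 FPKM in untreated cells (adjusted p = 0.0375 by limma). That call was lost without lactate replicate 1 or 3 or untreated replicate 1 or 3, and its sign turned with the GC and length trend removed (log2 fold change 0.025). Among the unconventional myosins, which work singly or as pairs and form no bipolar filaments, 7 of 11 tested genes rose and 2 fell (median 0.19). MYO6, the motor that walks to the minus end of actin, rose to 5.94 ± 0.0543 FPKM in lactate, against 4.31 ± 0.207 FPKM in untreated cells (log2 fold change 0.39, adjusted p = 0.000129 by limma). MYO10, the filopodial motor, rose to 6.33 ± 0.0419 FPKM, against 5.08 ± 0.0232 FPKM. MYO5A, a vesicle carrier, rose to 4.19 ± 0.168 FPKM, against 3.24 ± 0.0868 FPKM. Under the GC and length correction MYO6 had a log2 fold change of 0.20, and MYO5A 0.145, against 0.29 as deposited.

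Across the 6 libraries the genes whose log2(FPKM + 1) followed MYH10 most closely were LGALS1, ANKRD13A, C3, ERMP1 and ANO6, with Pearson r of 0.998 to 0.999. All pairs share the 6 libraries and the gap between groups, and 226 tested genes had an r of at least 0.99. LGALS1, the galectin-1 gene, had means of 291 FPKM in lactate and 224 FPKM in untreated cells, and ANO6, a phospholipid scramblase gene, 11.8 FPKM in lactate and 7.55 FPKM in untreated cells.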

How the data were processed

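Poly-A RNA of CAL27 cells was sequenced from 3 lactate and 3 untreated libraries. The submitters' processing notes name featureCounts 1.5.0-p3, StringTie 1.3.3b, HISAT2 2.0.5, fastp and build hg38, and no source used here names the annotation or strand setting. Per the file headers the authors deposited FPKM, 1 column per library. Whole reads and the length behind each gene's FPKM were recovered from the values (to within 0.003 reads for 20971 of 20972 genes above 0 in every library).

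The test was limma 3.58.1 (R 4.3.3; trended variance, robust moderation) of log2(FPKM + 1) on group alone, over genes reaching 1 FPKM in 3 or more libraries, with Benjamini-Hochberg adjustment over all of them and a threshold of 0.05. It was tested on simulated data that held no shift in GC, length or scaling between libraries, so that check says nothing about those. SE is the moderated one and ± the SD over 3 libraries. The members and lists were chosen with earlier results of these data known. Named were the members, up to 4 genes of the smallest p per list, and the 5 genes most correlated with MYH10. Some list genes are not analysed here, and some that this rule names are not reported here. Positions, overlaps, GC content and principal transcripts (the longest of the best APPRIS level) came from GENCODE 29, and promoters from RefSeq. Per-kilobase levels over the principal transcript were added after seeing the data. Alternatives varied scaling, pseudocount, filter, variance model, GC and length correction, replicate block and left-out libraries. Other work used Python 3.11.15.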

Additional observations from a re-analysis of the deposited data

How the results depend on the processing

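Leaving out any 1 library kept 8 members called (7 higher, 1 lower); over all genes it gave 6027 to 6473 calls and in the lists 65 to 72. Under quantile normalization MYH9 (log2 fold change 0.15) and MYL6 (0.062) passed as higher, so that 9 of the 9 tested members were called higher and 0 lower, with 12 list genes lower; with read totals MYH9 was 0.041 and 12 list genes were lower. Median centring had MYH9 pass at -0.050, with 2 members lower. With the GC and length trend removed MYH9 was 0.011, ROCK1 (0.045) and ROCK2 (0.065) no longer passed, 6 members were called, and the signs of PPP1CB (-0.031) and MYL6B (0.025) turned. A minimum of 5 FPKM left 4 members called (3 higher), since fewer genes were tested, and 1786 genes higher over all. Of those members MYH10 was under 5 FPKM in every untreated library. It met this minimum through the lactate libraries alone, so its call in that setting adds no support. MYH10's share of heavy chain FPKM, 2.07 percentage points above untreated, was 1.5 points above after quantile normalization and 1.98 with the trend removed. MYH9's, 2.68 points below (-2.68), was -1.88 after quantile normalization and -2.83 per kilobase of principal transcript; MYH14's, 0.604 points above, was 0.376 and 0.776 in those settings. The causes were not tested. Of 140 other fits of member fold changes, 133 kept direction and call. Same-numbered libraries did not deviate together (r of 0.0526, 0.0668 and -0.00377), so the numbers were not taken as pairs; with the replicate block 7039 genes, 8 members (7 higher, 1 lower) and 79 list genes passed. Counting error limits MYL9 and MYLK most.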
